A study of Mus musculus with 12 samples.

Results

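Astrocytes are the glial cells that couple to each other through gap junctions, clear glutamate from synapses and wrap blood vessels with endfeet. This account follows 9 genes that mark or equip these cells in the paraventricular nucleus (PVN) of the hypothalamus: the connexin genes Gjb6 and Gja1, the water channel gene Aqp4, the glutamate transporter genes Slc1a2 and Slc1a3, the enzyme genes Glul and Aldh1l1, the filament gene Gfap and the calcium-binding protein gene S100b. They were looked up by symbol among the 23260 genes of the deposited table, where they occupy 13 of 30399 transcript rows. The other 7 of these are textbook markers of the cell type. Gjb6 and Aqp4 were chosen by their measured values, the difference between the groups described here, so that difference is given for them as a description without a test.

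The animals came from hybrid zygotes (C57/Bl6:129S6/SvEvTac) that received 1 of 2 injections. The miR group (6 animals, replicates 1 to 6) received 9 miRIDIAN mimics, synthetic copies of miR-698, miR-32, miR-375, miR-29c, miR-204 and miR-532-3p, of miR-30c with miR-30a, and of miR-193-5p, at 0.11 ng/uL each and 1 ng/uL in all, in DPBS. The PBS group (6 animals, replicates 7 to 12) received DPBS alone. All zygotes were carried by surrogate CD1 dams, and the PVN of each adult male was punched at 18 to 20 weeks of age with a 1.0 mm needle from 2 slices of 300 µm. The mimics were given to the zygote, and no adult tissue was treated. The labels call the animals biological replicates and do not say which of them shared a litter.

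Levels are given as RPKM, reads scaled to transcript length and to library depth. Depth was 22.8 to 45.1 M reads in miR and 27.6 to 38.1 M reads in PBS. At that depth each of the 9 genes rested on at least about 1000 reads in every library, which limits the counting error to 3.16% or less. The tissue marker Oxt stood at 1295 to 3983 RPKM. The choroid plexus marker Ttr stayed at 0.209 to 0.676 RPKM. Of 25 further astrocyte markers, 24 had a mean of at least 1 RPKM, the level at which a gene entered the tests, and Dio2 did not. In bulk tissue, fewer astrocytes in a punch and less RNA per astrocyte cannot be told apart.

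The libraries fell into separate sets by a nuclear RNA, and 5 of the 9 genes followed that division. Meg3, a maternally expressed noncoding RNA that stays in the nucleus, measured 158, 316, 190 and 245 RPKM in PBS replicates 8, 9, 10 and 12. PBS replicates 7 and 11 held 50.6 and 58.0 RPKM, and the 6 miR libraries spanned 49.9 to 68.1 RPKM. No miR library therefore belongs to the set of 4 with high Meg3. In those 5, described gene by gene, all 4 libraries with high Meg3 lay below the other 8, as they did in 7.94% of all tested genes. The 5 hold Gjb6 and Aqp4, both chosen on values from these libraries. The part of whatever Meg3 tracks in the values of the 9 genes was not tested.

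In short, all 9 genes had a higher mean in miR than in PBS, by 0.07 to 0.28 on the log2 scale, and none of the 7 that were not chosen on it passed the test across all genes. With limma, 0% of the 13273 tested genes fell under an adjusted p of 0.05, where the minimum was 0.124. Without adjustment, 3 of these 7, Gja1, Slc1a3 and S100b, had a p under 0.05 with the higher mean in miR, against 9.12% of all tested genes. The median log2 difference was 0.18 over the 9 genes and 0.01 over all tested genes, of which 52.9% had the higher value in miR. Every one of the 9 genes passed the filter on low values.

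**Figure D1:**
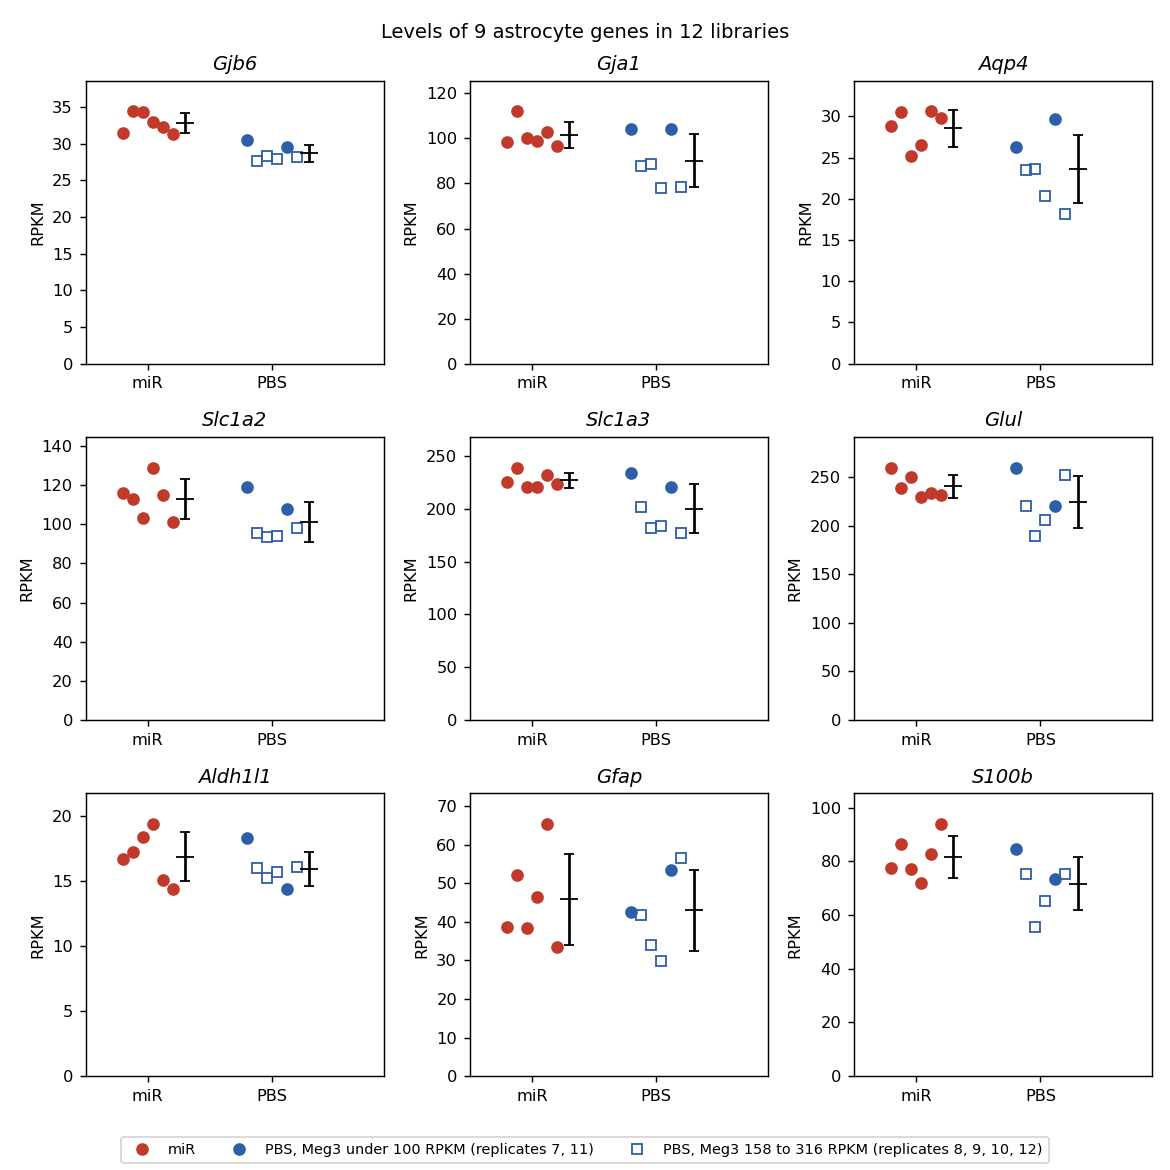
Level of each gene (vertical axis, RPKM, from 0) in every library of the miR and PBS groups. Points are libraries, open squares are the 4 PBS libraries with Meg3 between 158 and 316 RPKM, and bars are mean ± SD (n = 6). For Gjb6 all miR points lie above all PBS points, and for Gja1, Aqp4, Slc1a2 and Slc1a3 the open squares lie below every other point.

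Glul, which encodes glutamine synthetase, and Slc1a3, which encodes the glutamate transporter GLAST, were the most abundant of the 9, with means of 233 and 214 RPKM over the 12 libraries. They ranked 115th and 132nd among the tested genes. Glul exceeded Slc1a3 in 10 of 12 libraries, so the order of these neighbours was not fixed. Slc1a2 followed at 107 RPKM, Gja1 at 95.8, S100b at 76.6 and Gfap at 44.4 RPKM, and each exceeded the next in all 12 libraries. Gjb6, at 30.7 RPKM, exceeded Aqp4, at 26.1 RPKM, in 11 of 12 libraries. Aldh1l1 was lowest at 16.4 RPKM and ranked 4062nd. These levels are per transcript length, so they compare between genes only roughly. The read counter is not known, and the order depends on the row taken. Another row of Slc1a2 had a mean of 74.2 RPKM, below that of Gja1.

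Connexins form the channels of gap junctions, through which neighbouring astrocytes share ions and small metabolites. Gjb6 (chromosome 14, 57742140 to 57752414, minus strand, mouse build mm9 here and below) had a lowest value of 31.3, a median of 32.7 and a highest value of 34.4 RPKM in miR. Its PBS libraries, replicates 7 to 12 in order, held 30.5, 27.6, 28.3, 27.9, 29.5 and 28.2 RPKM. The groups did not overlap, and the highest PBS values were those of replicates 7 and 11. The mean was 32.8 ± 1.36 RPKM for miR against 28.7 ± 1.10 RPKM for PBS (SD, n = 6 each), a ratio of 1.14. Such a separation in that direction was found in 34 of 13273 tested genes, or 0.256%, and in no other of the 9. Gjb6 was chosen for this pattern, and nothing is read from the count. A second transcript row of Gjb6, which ends at the same 3' position, held 30.0 to 33.7 RPKM in the miR libraries against 27.4 to 29.0 RPKM in the PBS libraries.

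Gja1, the gene of the more abundant astrocyte connexin (chromosome 10, 56097106 to 56110225, plus strand), had a lowest value of 96.7, a median of 99.4 and a highest value of 112 RPKM in miR. PBS held 104, 87.9, 88.5, 77.9, 104 and 78.6 RPKM, again for replicates 7 to 12 in order. PBS replicates 7 and 11 lay inside the miR range, and the other 4 PBS libraries lay below all miR libraries. The log2 difference was 0.18 ± 0.07 (SE), and its adjusted p in limma was 0.218. PBS replicates 7 and 11 thus fell among the miR libraries for Gja1 and below them for Gjb6. For Gjb6 that position was fixed by the choice of the gene. Nothing is read from the contrast or from the ratio that follows. As a ratio within each library, Gjb6 over Gja1 was lowest in PBS replicates 11 and 7, at 0.284 and 0.294. It was 0.308 to 0.343 in miR and 0.314, 0.320, 0.358 and 0.359 in PBS replicates 8, 9, 10 and 12. The mean ratio was 0.324 ± 0.0130 for miR against 0.322 ± 0.0314 for PBS (SD, n = 6 each).

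The glutamate transporters take up the transmitter after release. Slc1a3 (chromosome 15, 8584124 to 8660807, minus strand) measured 225, 239, 221, 221, 232 and 223 RPKM in miR replicates 1 to 6. The PBS values were 234, 202, 182, 184, 221 and 177 RPKM. The 6 miR libraries lay close together, with an SD of 3.15% of their mean, while the PBS libraries had an SD of 11.6% and divided as for Gja1, with replicates 7 and 11 at or above the lowest miR libraries. The log2 difference was 0.19 ± 0.07 (SE), at an adjusted p of 0.186 in limma.

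Slc1a2, the gene of the main glutamate transporter of the adult forebrain (chromosome 2, 102546595 to 102630941, plus strand), measured 116, 113, 103, 129, 115 and 101 RPKM in miR. The PBS values, in replicate order, were 119, 95.3, 93.7, 93.8, 108 and 98.0 RPKM. The groups overlapped through PBS replicates 7 and 11 alone. Its log2 difference was 0.15 ± 0.07 (SE), at an adjusted p of 0.250 in limma. The ratio of Slc1a3 to Slc1a2 was 1.71 to 2.21 across miR libraries and 1.81 to 2.13 across PBS libraries. The log2 ratio differed by 0.03 between the groups (2-sided exact permutation p = 0.615), less than its spread between libraries. Of the 3 transcript rows of Slc1a2, the row with the earlier 3' end stood at 0.631 to 0.751 of the highest row. The rows overlap on the genome, and the division of reads between them is uncertain.

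Promoter sequences are shown for Gja1 and Slc1a3. Their pair gave the highest Pearson r of the 36 pairs within the 8 libraries with low Meg3 (r = 0.77, exact permutation p = 0.0195, adjusted p = 0.585). By Spearman rho the pair was not the highest, at 0.36 against 0.69 for Gja1 with Gfap. The sequence of Gjb6, the other connexin gene of the 9, is shown beside those of Gja1 and Slc1a3. They come from RefSeq on build GRCm38.p6 and run from 250 bases before to 50 bases after the annotated start, in the direction of the gene. The windows are chr10:56377050-56377349 for Gja1, chr15:8710758-8711057 for Slc1a3 and chr14:57133562-57133861 for Gjb6. Capitals mark matches, on either strand, to 5 motifs. They are the STAT motif TTCNNNGAA and the NFI motif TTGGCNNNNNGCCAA, the SOX motif, which reads AACAAT, the AP-1 motif, which reads TGANTCA, and the TATA motif, which reads TATAAA.
Gja1: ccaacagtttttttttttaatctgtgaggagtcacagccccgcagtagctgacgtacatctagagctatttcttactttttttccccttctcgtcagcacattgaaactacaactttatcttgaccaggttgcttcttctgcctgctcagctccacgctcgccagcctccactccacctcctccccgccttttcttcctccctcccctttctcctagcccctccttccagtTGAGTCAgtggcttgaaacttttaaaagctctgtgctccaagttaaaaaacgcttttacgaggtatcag
Slc1a3: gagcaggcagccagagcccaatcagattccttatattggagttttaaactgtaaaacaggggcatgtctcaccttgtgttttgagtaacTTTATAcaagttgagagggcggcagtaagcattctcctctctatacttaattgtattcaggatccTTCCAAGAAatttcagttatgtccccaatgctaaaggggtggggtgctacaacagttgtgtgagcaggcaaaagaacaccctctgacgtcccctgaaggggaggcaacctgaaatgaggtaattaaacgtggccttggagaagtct
Gjb6: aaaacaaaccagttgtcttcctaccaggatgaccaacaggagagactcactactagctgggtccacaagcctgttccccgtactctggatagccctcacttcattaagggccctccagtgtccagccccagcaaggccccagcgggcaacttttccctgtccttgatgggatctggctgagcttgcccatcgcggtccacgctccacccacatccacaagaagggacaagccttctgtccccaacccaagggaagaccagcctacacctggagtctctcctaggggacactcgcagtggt

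Counted from the start as position 0, the Gja1 window held an AP-1 match from -19 to -13. The Slc1a3 window held a STAT match from -96 to -88 and a TATA match on the opposite strand from -161 to -156. The Gjb6 window held none of the 5, and neither did those of Glul, S100b, Slc1a2 and Aldh1l1. Among all 32851 promoter windows of the same length, 7.81% held the AP-1 motif, 8.30% the STAT motif and 13.6% the TATA motif. SOX was found in 10.7% of all windows and NFI in 0.0365%, and neither in any of the 8 windows examined, of all members but Aqp4. The Gfap window had a STAT match from -2 to 6. STAT was thus the only motif of the 5 found in 2 of the 8 windows. A match is a run of letters, not a bound site.

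Aqp4 encodes the water channel that is concentrated in the endfeet around vessels (chromosome 18, 15547903 to 15562193, minus strand). The miR libraries held 28.8, 30.5, 25.2, 26.5, 30.6 and 29.8 RPKM, and the PBS libraries 26.3, 23.5, 23.6, 20.3, 29.7 and 18.2 RPKM, in replicate order. PBS replicates 7 and 11 lay inside the miR range, and the other 4 PBS libraries lay below all miR libraries, as for Gja1. The mean was 28.6 ± 2.26 RPKM for miR against 23.6 ± 4.09 RPKM for PBS (SD, n = 6 each), a ratio of 1.22 that was the widest of the 9. Aqp4 was also chosen for its pattern, so this is a description. Relative to Gja1 within each library, Aqp4 stood at 0.252 to 0.308 in miR and 0.232 to 0.285 in PBS, ranges that overlap.

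Glul converts glutamate to glutamine in astrocytes (chromosome 1, 155747075 to 155756844, plus strand). It measured 260, 239, 250, 230, 234 and 232 RPKM in miR and 260, 220, 189, 206, 220 and 252 RPKM in PBS, in replicate order. Here PBS replicate 12, with high Meg3, lay inside the miR range and replicate 11 below it, so the division seen for the transporters did not hold. The log2 difference was 0.11, with a 95% interval from -0.05 to 0.26 and an adjusted p of 0.400 in limma.

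Aldh1l1, a folate enzyme gene widely used to label astrocytes (chromosome 6, 90500842 to 90549165, plus strand), measured 16.7, 17.2, 18.4, 19.4, 15.1 and 14.4 RPKM in miR. The PBS values were 18.3, 16.0, 15.2, 15.7, 14.4 and 16.1 RPKM. The groups overlapped, and the 4 libraries with high Meg3 lay inside the range of the other 8. Its log2 difference of 0.07 had a 95% interval from -0.09 to 0.23 and an adjusted p of 0.571 in limma.

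Gfap encodes the intermediate filament that rises in reactive astrocytes (chromosome 11, 102748650 to 102758514, minus strand). It was the most variable of the 9, at 38.7, 52.2, 38.4, 46.5, 65.4 and 33.4 RPKM in miR and 42.5, 41.8, 33.9, 29.7, 53.5 and 56.4 RPKM in PBS. The highest library, miR replicate 5, held 2.20 times the level of the lowest, PBS replicate 10, and the groups overlapped over most of their range. The standard deviation over the 12 libraries was 24.1% of the mean, against 7.98% for Gjb6. The log2 difference was 0.09 with a 95% interval from -0.28 to 0.46 (adjusted p = 0.786 in limma). Without miR replicate 5 it was -0.02, and without PBS replicate 10 it was -0.01. A shorter Gfap row with another 3' end stood at 0.423 to 0.538 of the long row in all libraries, with a mean of 0.491 ± 0.0289 for miR against 0.496 ± 0.0407 for PBS (SD, n = 6 each).

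S100b encodes a calcium-binding protein of astrocytes and some oligodendrocytes (chromosome 10, 75716581 to 75724064, plus strand). It measured 77.4, 86.4, 77.2, 72.0, 82.9 and 94.0 RPKM in miR and 84.6, 75.4, 55.7, 65.4, 73.3 and 75.2 RPKM in PBS. PBS replicates 9 and 10 were below all miR libraries, and the other 4 PBS libraries lay inside the miR range. The log2 difference was 0.20 ± 0.09 (SE), and the adjusted p in limma was 0.246.

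**Figure D2:**
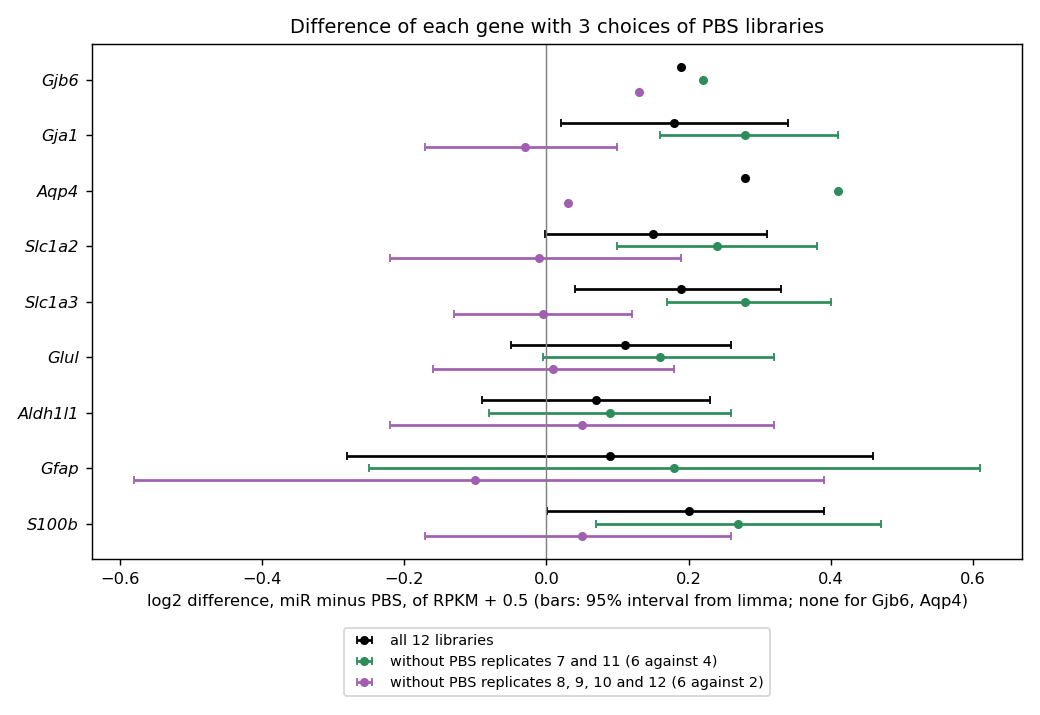
Log2 difference between miR and PBS (horizontal axis, on RPKM + 0.5) for each gene, with 95% intervals from limma for the 7 genes not chosen on this difference. Black is all 12 libraries, green leaves out PBS replicates 7 and 11, and purple leaves out PBS replicates 8, 9, 10 and 12. The purple points run from -0.10 to 0.13.

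Which PBS libraries stood for the control group set the size of these differences. Against the 4 PBS libraries with high Meg3 alone, the median log2 difference of the 9 genes was 0.24. This subset and the next were chosen after seeing the data. Of the 7 genes not chosen on this difference, Gja1, Slc1a2 and Slc1a3 passed an adjusted p of 0.05 in limma. Of all tested genes, 11.9% were called higher in miR there. These are the genes among the 7 already described as lowest in these 4 libraries, so their passing restates that division and is no further test. Against PBS replicates 7 and 11 alone, the median was 0.01 and 5 of 9 genes had a higher value in miR. None of the 7 passed in that small comparison, and neither did any other tested gene. Gja1, Slc1a2 and Slc1a3 stood at -0.03, -0.01 and -0.0043 there. The chosen genes stood at 0.13 for Gjb6 and 0.03 for Aqp4, which the choice partly fixes. Without PBS replicate 7 alone, Slc1a3 passed (adjusted p = 0.0393 in limma), where 1.83% of genes were called higher. Without PBS replicate 11 alone, none of the 7 passed, where 0.784% of genes were called higher. With libraries weighted by estimated quality, Gja1, Slc1a2 and Slc1a3 passed, and 10.8% of genes were called higher.

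In a fit with a covariate for nuclear RNA, the mean standardized level of nuclear-retained transcripts, most differences lay near 0. With it the log2 difference was 0.0043 for Gja1, 0.0043 for Slc1a3, -0.02 for Slc1a2, 0.0024 for Glul and 0.02 for Aldh1l1. It was 0.04 for S100b and -0.13 for Gfap, and, as a description, 0.14 for Gjb6 and 0.08 for Aqp4. The median over the 9 genes was 0.0043, and none of the 7 passed (adjusted p = 1.000 in limma). Nor did any other tested gene. The covariate moved with the group, at -0.86 to -0.26 in miR and 0.70 to 1.92 in PBS replicates 8, 9, 10 and 12. Only PBS replicates 7 and 11, both at -0.56, lay in the miR range, so the fit separates covariate and group poorly. The part of nuclear RNA in the differences was not tested.

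GC content moved with the differences as well. Across 13004 tested genes with a known transcript, which are not independent replicates, Spearman's rho between GC content and the log2 difference was -0.64. The median GC content of tested genes was 50.6%. Aqp4, with the widest difference, had the lowest GC content of the 9 at 41.4%, followed by Gja1 at 44.5% and Slc1a3 at 46.7%. Gfap and Aldh1l1, with the smallest differences, had the highest at 55.5% and 55.8%. Between these ends the differences were not in order, at 0.20 for S100b (48.3%), 0.11 for Glul (49.2%), 0.19 for Gjb6 (49.6%) and 0.15 for Slc1a2 (50.4%). Another Slc1a2 row with the same 3' end, at a mean of 102 RPKM, had a GC content of 45.3%. The place of Slc1a2 in this order, and its value after the correction below, thus depend on the row taken. Aqp4 and Gjb6 were chosen on the difference. The part of GC content in it, apart from the Meg3 division, was not tested. After each library was corrected for its GC trend, all 9 differences were positive, at 0.07 to 0.17, and none of the 7 passed (adjusted p = 0.395 to 0.764 in limma). No other gene passed in that fit either. Gja1 moved from 0.18 to 0.08, Slc1a3 from 0.19 to 0.12, Aqp4 from 0.28 to 0.17 and Glul from 0.11 to 0.07. Gfap moved the other way from 0.09 to 0.17 and Aldh1l1 from 0.07 to 0.15. Gjb6 and S100b stood at 0.15 and Slc1a2 at 0.14.

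**Figure D3:**
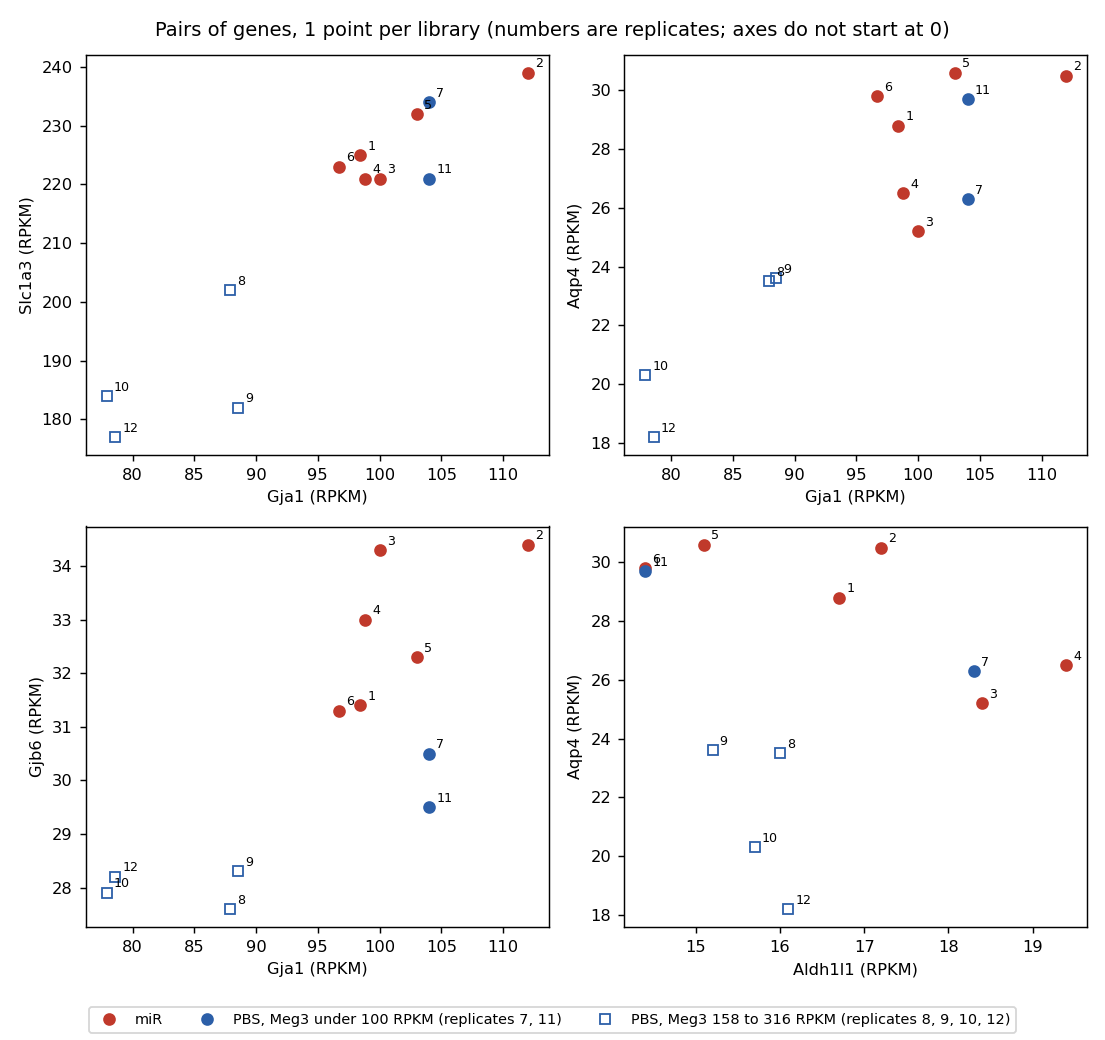
Levels of 4 pairs of genes in RPKM, with 1 point per library and its replicate number. The open squares, the PBS libraries with high Meg3, form a separate set at low Gja1, between 77.9 and 88.5 RPKM, against 96.7 to 112 RPKM in the other 8 libraries.

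Covariation between the genes lay mostly in the same division. For Gjb6, Gja1, Aqp4, Slc1a2 and Slc1a3 the 4 libraries with high Meg3 were the 4 lowest of 12, as in 7.94% of tested genes, at 27.6 to 28.3, 77.9 to 88.5, 18.2 to 23.6, 93.7 to 98.0 and 177 to 202 RPKM. Because the libraries form separate sets, correlations of pairs are given within the 8 libraries with low Meg3, and the set of 4 is too small for one. Of the 36 pairs, 26 had a positive Pearson r there, with a median of 0.13 and a range from -0.77 to 0.77, and none passed an adjusted p of 0.05 in the exact permutation test. The highest was that of Gja1 with Slc1a3 (r = 0.77, exact permutation p = 0.0195, adjusted p = 0.585, n = 8). Its Spearman rho was 0.36 (exact permutation p = 0.389). Gja1 with Gfap had a higher rho of 0.69 (exact permutation p = 0.0694, adjusted p = 0.856). Slc1a3 with S100b had a rho of 0.67 (exact permutation p = 0.0831, adjusted p = 0.856). Without miR replicates 2 and 6 the r of Gja1 with Slc1a3 was 0.50. The lowest was that of Aqp4 with Aldh1l1 (r = -0.77, exact permutation p = 0.0325, adjusted p = 0.585; rho = -0.67, exact permutation p = 0.0831), and r was -0.72 without miR replicate 3 and PBS replicate 7. Gjb6 with Gja1 gave r = 0.22 (exact permutation p = 0.610, adjusted p = 0.955) and rho = 0.07 (exact permutation p = 0.882), and r was -0.15 without miR replicate 2 and PBS replicate 11. Within the 6 miR libraries alone the median r was 0.10 and none of 36 pairs passed. Within the 6 PBS libraries, which hold both sets, the median r was 0.56, 33 of 36 pairs were positive and none passed. Over all 12 libraries, across the division, the median r was 0.51, 35 of 36 pairs were positive and 9 passed by permutation. The passing pairs include Gjb6 and Aqp4, each with Gja1 and with Slc1a3. Both were chosen on values from these libraries, which partly fixes those results. No share among pairs of other genes was computed, and nothing is read from these counts. With 8 libraries, weak relations were not detectable.

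**Figure D4:**
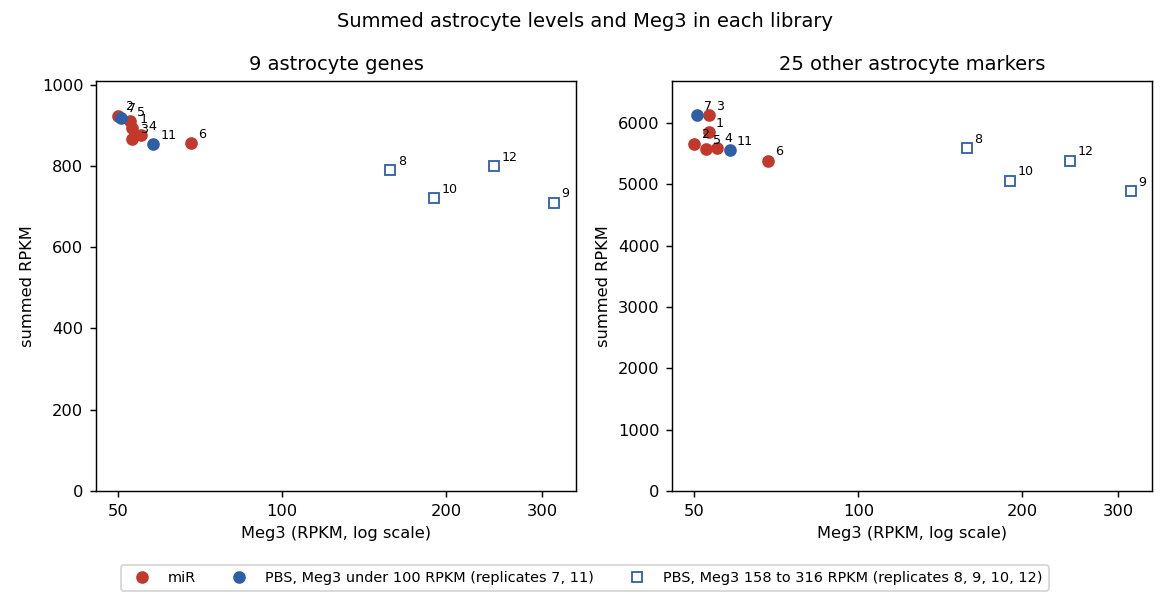
Summed level of the 9 genes (left) and of 25 other astrocyte markers (right) in RPKM against Meg3 on a log scale, 1 point per library with its replicate number. The 9 genes sum to 710 to 800 RPKM in the 4 libraries with high Meg3 and to at least 854 RPKM in the other 8.

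The sum of the 9 genes per library was at least 857 RPKM in every miR library. It was 919 and 854 RPKM in PBS replicates 7 and 11, and 790, 710, 721 and 800 RPKM in PBS replicates 8, 9, 10 and 12. The sums of 25 other astrocyte markers overlapped between the sets, at 4890 to 5589 and 5385 to 6130 RPKM, and so did those of the cell types that follow. A sum can hide single genes. Sparcl1 held 573 to 647 RPKM in the 4 libraries with high Meg3 and at least 664 RPKM in the other 8. Ppp1r3c held 12.1 to 15.0 and at least 15.3 RPKM. Among the other markers named below, Kcnj10, Aldoc, Apoe and Sox9 overlapped between the sets. The neuronal markers summed to 1048 to 1226 RPKM in the 4 libraries with high Meg3 and to 1069 to 1227 RPKM in the other 8. The ependymal and tanycyte markers, cells that share Gfap, Slc1a3 and S100b with astrocytes, summed to 84.6 to 128 and 86.5 to 136 RPKM. The 6 oligodendrocyte markers summed to 384 to 613 RPKM in the former and 386 to 1397 RPKM in the latter, with the maximum in PBS replicate 7. The 6 endothelial markers all had a lower mean in miR, none past an adjusted p of 0.05, and summed to 37.1 to 46.0 RPKM there against 39.7 to 54.6 RPKM in PBS. The part of any of these in the astrocyte values was not tested.

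The genes whose profiles were most like those of the 9 were sought by Pearson r over the 12 libraries. Slc1a3 was closest to the zinc transporter gene Slc39a12 (r = 0.99 over 12 libraries and 0.98 over the 8 with low Meg3), then to Rcbtb1 and Cggbp1 at 0.98. Aqp4 was closest to Alkbh8, Ckap5 and Aph1b (0.98, 0.97 and 0.97 over 12 libraries, 0.96, 0.92 and 0.94 over 8). Gja1 was closest to Nebl, Rcbtb1 and Cpeb3, each at 0.96, with 0.71, 0.68 and 0.74 over the 8. Gjb6 was close to Entpd5 and Rin2 at 0.91 and 0.90, or 0.72 and 0.69 over the 8.

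For Slc1a2 the nearest were Lcp1, Socs5 and Pcdh19 (0.94, 0.93 and 0.92), and for S100b Tpmt, Prdx1 and Rps24 (0.97, 0.97 and 0.96). Aldh1l1 was close to Eif4h and Apln, both at 0.87 over 12 libraries, with 0.89 and 0.90 over 8. Glul was close to Timp4, a metalloproteinase inhibitor gene, at 0.93, beside 2810405K02Rik at 0.93 and Mrpl46 at 0.90. For Gfap the closest, 1700101I11Rik and Mtap, reached 0.84, before 2810422O20Rik at 0.81. The nearest genes to the mean standardized level of the 9 were Armc1, Cstf2t, Ppm1b, Mboat2 and Mtap4, at 0.95 to 0.98. All these values come from the same libraries and share their depth and Meg3 division, and they describe likeness alone.

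Genes that work beside the 9 gave small differences in both directions. Of 12 genes of endfoot channels and their anchoring complex, 9 had the higher mean in miR and 3 in PBS. Their median log2 difference was 0.11, and 0 passed in limma. At an unadjusted p under 0.05 were 5 of the 12, 4 higher in miR and 1 lower, against 20.2% of all tested genes in either direction. Dtna, which encodes the anchoring protein dystrobrevin alpha, had means of 21.4 ± 1.29 for miR and 18.3 ± 1.70 RPKM for PBS (SD, n = 6 each), at an adjusted p of 0.174 in limma. Agrn, the gene of the basement membrane proteoglycan agrin, went the other way at 15.2 ± 1.09 and 20.2 ± 4.47 RPKM, with the highest value, 27.9 RPKM, in PBS replicate 9. Kcnj10, the gene of the potassium channel that sits beside the water channel in endfeet, measured 87.7 ± 5.08 and 79.1 ± 6.99 RPKM.

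Of 14 genes of glutamate and glutamine handling, 8 had the higher mean in miR and 6 in PBS, and the median log2 difference was 0.02. None passed in limma, with 2 of 14 at an unadjusted p under 0.05, beside the 20.2% of all tested genes. Glud1, the gene of glutamate dehydrogenase, had means of 94.3 ± 1.47 for miR and 85.1 ± 5.95 RPKM for PBS (SD, n = 6 each). Slc1a6, a transporter gene of neurons, stood at 9.54 ± 0.859 and 10.8 ± 1.24 RPKM. Neither passed, at adjusted p = 0.174 and 0.236 in limma.

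Of 9 other connexin and pannexin genes, 7 were tested. The mean was higher in miR for 3 and in PBS for 4, and none passed in limma. At an unadjusted p under 0.05 was 1 of the 7, beside 20.2% of all tested genes in either direction. The vessel connexin gene Gja4 had a mean of 1.10 ± 0.118 RPKM in miR and 1.20 to 2.05 RPKM across the PBS libraries, and its log2 difference was -0.38 (adjusted p = 0.174 in limma). The oligodendrocyte connexin gene Gjc3 had means of 6.15 ± 0.537 and 5.98 ± 1.87 RPKM, with 9.71 RPKM in PBS replicate 7, the library with the highest oligodendrocyte sum.

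Of the 24 other astrocyte markers tested, 19 had the higher mean in miR and 5 in PBS, and the median log2 difference was 0.06. Of all tested genes, 52.9% had the higher value in miR. None of the 24 passed in limma, and 4, all higher in miR, had an unadjusted p under 0.05, against 9.12% of all tested genes in that direction. The list shares 6 genes with the endfoot list. Ppp1r3c, a glycogen regulator gene, had means of 17.4 ± 1.55 for miR and 14.6 ± 1.76 RPKM for PBS, and Sparcl1, the gene of a secreted synapse-promoting protein, measured 718 ± 38.8 and 634 ± 59.4 RPKM (SD, n = 6 each). The means of other markers lay closer together. Aldoc, an astrocyte glycolytic enzyme gene, measured 456 ± 36.1 and 429 ± 43.1 RPKM, Apoe 1063 ± 121 and 1045 ± 137 RPKM, and Sox9, an astrocyte transcription factor gene, 8.83 ± 0.898 RPKM in miR with 7.09 to 9.98 RPKM across the PBS libraries.

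Of 16 genes of other intermediate filaments and of reactive astrocytes, 7 stayed under the filter, Lcn2, Steap4, Cd44, Timp1, Osmr, Cxcl10 and Aspg. Of the 9 tested, 3 had the higher mean in miR and 6 in PBS, and the median log2 difference was -0.04. None passed in limma, with 2 of 9 at an unadjusted p under 0.05, beside 20.2% of all tested genes in either direction. Plec, which encodes the linker protein plectin, had means of 6.66 ± 0.578 for miR and 8.71 ± 1.11 RPKM for PBS (SD, n = 6 each). The heat shock gene Hspb1 had a mean of 0.933 ± 0.293 RPKM in miR and a log2 difference of -0.49. Both had an adjusted p of 0.174 in limma. Vim, the gene of vimentin, had means of 29.8 ± 2.48 and 29.8 ± 5.91 RPKM and a log2 difference of 0.02 (adjusted p = 0.927 in limma).

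Markers of other cells in the punch, up to 2 per list by smallest p, had adjusted p of 0.174 or more in limma. For neurons, the log2 difference was -0.17 for Rbfox3, a splicing factor gene, and 0.12 for Syt1, a synaptic vesicle gene. The myelin gene Mobp stood at 0.32, and its highest library was PBS replicate 7 with 41.0 RPKM. The oligodendrocyte precursor genes Cspg4 and Pdgfra went in opposite directions, at -0.24 and 0.14. For microglia, Aif1 stood at 0.36 and the complement gene C1qb at 0.11. The endothelial junction genes Cdh5 and Cldn5 stood at -0.26 and -0.46. The ependymal and tanycyte list gave -0.15 for Col23a1 and 0.17 for Ccdc153, and its gene Rax was at 0 in at least 1 library. The choroid plexus genes Folr1 and Kl stood at -0.04 and -0.01, and Dcn, the only meningeal gene tested, at -0.33. Among PVN genes, Crh stood at -0.34 and Avp at -0.32. The nuclear RNAs Neat1 and Miat stood at -0.67 and -1.20, and Leng8 at -1.30, with 8.13 to 10.4 RPKM in the 8 libraries with low Meg3 and 33.6 to 39.5 RPKM in the other 4.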

How the data were processed

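The authors deposited 1 table of RPKM values with a row per RefSeq transcript and a column per animal. The submitters' processing notes name mm9 and edgeR without a role, and the aligner, the read counter and any further scaling were not given in the sources used here. Libraries were stranded and poly-A selected, and each was run on 2 lanes, per the labels' protocols and the series design. Whether counting used strand is not given.

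Depth was estimated from the smallest nonzero values of single-exon odorant receptor (Olfr) genes, as 2 step sizes per library taken for the 2 lanes. Of 228 such values, 228 matched a sum of the steps to 2%, a weak check since some of them set the steps. Counts of other genes were not recovered, so no count model was used. Each gene was represented by its row of highest mean. Of 913 rows without a symbol, 868 were named by RefSeq accession. The 13273 genes whose mean reached 1 RPKM were analysed as log2(RPKM + 0.5), which understates changes of low genes, with limma 3.58.1 in R 4.3.3 (variance trend, 2-sided, Benjamini-Hochberg over all tested genes). In Python 3.11.15, ratios and correlations within 8 or fewer libraries used exact permutation, and correlations over more libraries used 100000 random permutations. GC content and transcript length came from GENCODE M21 by RefSeq accession (98.0% of tested genes). The limma p-values set each difference against the spread between these animals, which in PBS includes the Meg3 division. The permutation p-values treat the libraries as exchangeable.

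The 9 genes, the gene lists and the tests were chosen with earlier results of these data known. Named beside the 9 were the 2 genes of smallest p in each gene list, a fixed set (Meg3, Leng8, Kcnj10, Vim, Apoe, Aldoc, Sox9) and the 3 genes most alike each member in Pearson r (5 for the mean of all 9). The limma scripts were tested on simulated data. Alternatives covered the pseudocount, the filter, library scaling, limma settings, transcript rows, a nuclear RNA score, GC content and left-out libraries. Some genes that the naming rule selects are not reported here.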

Additional observations from a re-analysis of the deposited data

How the results depend on the processing

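Over 30 alternatives, 238 values of the 9 genes were recomputed. Of these, 216 kept their direction and their side of the threshold, 14 kept their direction and passed an adjusted p of 0.05, and 8 changed sign. With a covariate for nuclear RNA, which moved with the group, Slc1a2 stood at -0.02 and Gfap at -0.13. The median of the 9 moved from 0.18 to 0.0043 in that fit, although 7 kept their sign. Without PBS replicates 8, 9, 10 and 12, chosen after seeing the data like the GC correction and the fit without replicates 7 and 11, Gja1 stood at -0.03, Slc1a2 at -0.01, Slc1a3 at -0.0043 and Gfap at -0.10. Without miR replicate 5 and without PBS replicate 10, Gfap stood at -0.02 and -0.01, and its values with 1 library left out ranged from -0.02 to 0.17. The 14 values that passed include those of Gjb6 and Aqp4, chosen on this difference, whose passing is no test. With them, the count of members past an adjusted p of 0.05 was 0 with all libraries, 5 with library weights, 5 without PBS replicates 7 and 11, and 0 to 2 with 1 library left out. The count of all genes went from 0 to 3025 with weights, 3107 without PBS replicates 7 and 11, and 0 to 909 with 1 library left out, reaching 909 without PBS replicate 7, 429 without replicate 11 and 1 without miR replicate 3. The cause was not tested. Pairs of members past an adjusted p of 0.05 numbered 9 over 12 libraries by Pearson r, 5 by Spearman, 0 within miR or PBS alone, 0 within the 8 libraries with low Meg3 (a set chosen after seeing the data), 1 without the 2 libraries farthest from the median, and 10 with median-scaled libraries. Some of the passing pairs over 12 libraries hold Gjb6 or Aqp4, chosen on values from these libraries. The miR minus PBS difference of the log2 ratio of Slc1a3 to Slc1a2 was 0.01 to 0.08 with 1 library left out. No paired analysis was possible because the groups share no replicate number (1 to 6 against 7 to 12). Counting errors were at most 3.16% per library.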
